A study of Rattus norvegicus with 24 samples.

Results

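Heat shock and chaperone genes were followed through the mRNA libraries of 2 stress-related rat brain nuclei. The genes were the 9 rows of the deposited count table named Hspa8, Hspa5, Hsp90aa1, Hsp90ab1, Hsph1, Hspb1, Dnajb1, Hspa4 or Calr4, out of 35032 genes. One was the hypothalamic paraventricular nucleus (PVN), whose neurons release corticotropin-releasing hormone, and the other the central amygdala (CEA), an output nucleus for threat and pain signals. The rats were male Sprague-Dawley animals bought at 7 weeks of age. NC rats were normal controls without an operation. HT rats had part of the left liver lobe removed under isoflurane. EA rats had the same operation with electroacupuncture at Zusanli (ST 36) and Sanyinjiao (SP 6), once a day ahead of it and once directly after it, and SEA rats had the operation with needles and no current. According to the study's methods, every rat spent time in the restraint device and tissue was taken a day after the last stimulation. Isoflurane is described there for the operation, so surgery and its anesthesia cannot be told apart in HT against NC. Each of the 8 region and treatment groups had 3 libraries, 24 in all. The study's methods describe brain samples from different animals of the same batch, while labels name no animal for a library. Which libraries, if any, share a rat cannot be told, and fits without a replicate block take them as independent. The p-values measure the spread between these libraries, which may be technical in part.

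Heat shock proteins are chaperones: they bind unfolded stretches of other proteins and release them again in cycles driven by ATP. HSP70 proteins, loaded by J proteins and emptied by nucleotide exchange factors, act on new and damaged chains, and HSP90 proteins finish the folding of kinases and steroid receptors. The glucocorticoid receptor is a well known HSP90 client. Heat and other damage switch on the inducible members through heat shock factor 1 (Hsf1), which binds repeated short elements in their promoters, while a separate set in the endoplasmic reticulum is switched on by the unfolded protein response.

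The 9 genes cover most of these roles. Hspa8 encodes the constitutive cytosolic HSP70 and lies at chr8:44990014-44993179. Hspa4 (chr10:38601624-38642397) and Hsph1 (chr12:6322668-6341902) encode HSP110 proteins, which act as exchange factors of HSP70. Dnajb1 (chr19:24747178-24750919) encodes a J protein that hands clients to HSP70. Hsp90ab1 (chr9:17817721-17823243) encodes the constitutive cytosolic HSP90 and Hsp90aa1 (chr6:135045363-135049728) its inducible partner. Hspb1 (chr12:23839399-23841049) encodes a small heat shock protein that holds unfolded proteins without ATP. Hspa5 (chr3:13838304-13842762) encodes BiP, the HSP70 of the endoplasmic reticulum, and Calr4 (chr5:128865389-128899792) a less studied relative of calreticulin, a calcium-binding lectin chaperone. Coordinates are those of the count table, which names no genome build, and all 9 rows are annotated as protein coding.

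Promoters were searched for the elements through which both programs are known to act, and selected stretches with a match, from members and from Hsp90b1, are shown to let the expression values be read beside them. RefSeq windows of the GRCr8 build, 250 bases before to 50 after the annotated start, were held for 8 of the 9 genes, with no entry for Hsp90aa1. The windows were scanned on both strands for a heat shock element of 3 units (GAANNTTCNNGAA or TTCNNGAANNTTC) or of 2 units (GAANNTTC or TTCNNGAA, which also lie inside every element of 3 units), and for the endoplasmic reticulum stress element (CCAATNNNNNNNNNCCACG or its reverse complement). Of all 33469 windows, 0.798% held a heat shock element of 3 units, 15.9% one of 2 units and 0.0657% an endoplasmic reticulum stress element. In the stretches below, written 5′ to 3′ in the direction of transcription, capitals mark the matches. The first 4 hold heat shock elements and the last 3 endoplasmic reticulum stress elements.
Hspa8, chr8:50080281-50080491, plus strand: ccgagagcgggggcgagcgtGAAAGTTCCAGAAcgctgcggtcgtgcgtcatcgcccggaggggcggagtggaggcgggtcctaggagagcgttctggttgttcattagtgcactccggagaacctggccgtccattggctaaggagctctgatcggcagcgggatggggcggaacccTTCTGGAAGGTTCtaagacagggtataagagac
Hsph1, chr12:10427243-10427364, plus strand: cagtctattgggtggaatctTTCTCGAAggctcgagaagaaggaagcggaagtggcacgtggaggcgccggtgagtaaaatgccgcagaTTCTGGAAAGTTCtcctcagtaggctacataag
Dnajb1, chr19:41431097-41431172, minus strand: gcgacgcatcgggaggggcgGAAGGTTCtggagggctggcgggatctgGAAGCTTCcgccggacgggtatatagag
Hspb1, chr12:26432383-26432450, minus strand: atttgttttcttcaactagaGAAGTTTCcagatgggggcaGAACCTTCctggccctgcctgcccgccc
Hspa5, chr3:38452953-38453011, plus strand: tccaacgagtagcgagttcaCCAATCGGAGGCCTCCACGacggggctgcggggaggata
Calr4, chr5:129216112-129216170, plus strand: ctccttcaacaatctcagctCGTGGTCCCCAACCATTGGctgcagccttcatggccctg
Hsp90b1, chr7:23012327-23012489, minus strand: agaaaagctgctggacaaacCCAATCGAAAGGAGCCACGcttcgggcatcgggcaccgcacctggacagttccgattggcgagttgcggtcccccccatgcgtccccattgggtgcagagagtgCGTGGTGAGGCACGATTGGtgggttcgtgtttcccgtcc
Hspa8 held 2 elements of 3 units, ending 201 and 43 bases before the start, and Hsph1 held 1, ending 24 bases before it. Dnajb1 and Hspb1 held elements of 2 units. Hspa5 held its stress element between 43 and 25 bases before the start, and Hsp90b1, which encodes GRP94, the HSP90 of the endoplasmic reticulum and no member of the 9, held 2. Calr4 has 3 annotated starts, and the window of the first held a stress element on the opposite strand, between 161 and 143 bases before that start. The window of the second held a heat shock element of 2 units at its outer end, opening 250 bases before the start. No match was found in the windows of Hsp90ab1 or Hspa4. A match is a description of these letters only.

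Library totals ran from 13152772 to 18607032 counts. Mitochondrial genes took 7.07 to 8.77% of counts in PVN libraries and 10.1 to 14.4% in CEA libraries, except CEA EA replicate 2 at 3.80%. Some values are also given without that library. The 8 PVN marker genes summed to 449 to 1388 CPM (counts scaled to library size) in PVN libraries and to 44.4 to 189 CPM in CEA libraries. For the 8 CEA marker genes the sums were 1239 to 1600 CPM in PVN libraries and 2787 to 5048 CPM in CEA libraries, with 4 of them higher and 3 lower in the CEA by test. CEA libraries also held more of the striatal markers (2261 to 6956 against 327 to 558 CPM) and of the oligodendrocyte markers (26170 to 44360 against 9907 to 16840 CPM). Fewer cells of a type and less RNA per cell cannot be told apart in such tissue libraries.

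Hsp90ab1 and Hspa8, the constitutive cytosolic HSP90 and HSP70, led the 9 genes in both nuclei. On a per-length scale, TMM-normalised CPM per kilobase of gene model, Hsp90ab1 stood highest in the PVN at 611.5 ± 39.7 (SD, n = 12 libraries), followed by Hspa8 at 418.0 ± 26.9, Hspa5 at 180.1 ± 24.8, Hsph1 at 98.2 ± 9.08, Hspa4 at 66.5 ± 4.09 and Dnajb1 at 31.9 ± 3.15. Hspb1 (6.18 ± 1.19), Hsp90aa1 (3.76 ± 2.03) and Calr4 (2.38 ± 0.72) closed the order. Mean ± SD intervals of neighbours overlapped only between Hspb1 and Hsp90aa1 and between Hsp90aa1 and Calr4. The order was the same in the CEA, from Hsp90ab1 at 538.2 ± 49.2 and Hspa8 at 345.7 ± 31.5 down to Hsp90aa1 at 2.58 ± 0.46 and Calr4 at 2.54 ± 0.76, where Hspa5 (130.8 ± 14.5) overlapped Hsph1 (107.5 ± 13.9) and Hsp90aa1 overlapped Calr4. The place of Hsp90aa1 rests on its own row: LOC103692716, another row described as HSP 90-alpha, had PVN levels of 34.3 ± 13.7 and CEA levels of 32.9 ± 17.5, close to those of Dnajb1. The strictly inducible HSP70 gene Hspa1a was at 0 to 2 counts in each of the 24 libraries, below the 3 counts taken as the detection floor. Its neighbour Hspa1b, listed as LOC108348108 and matched by gene number, had 5 to 38 counts (0.40 to 2.24 CPM). How reads matching both rows were counted is not given in the sources used here, so either may be an undercount.

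**Figure D1:**
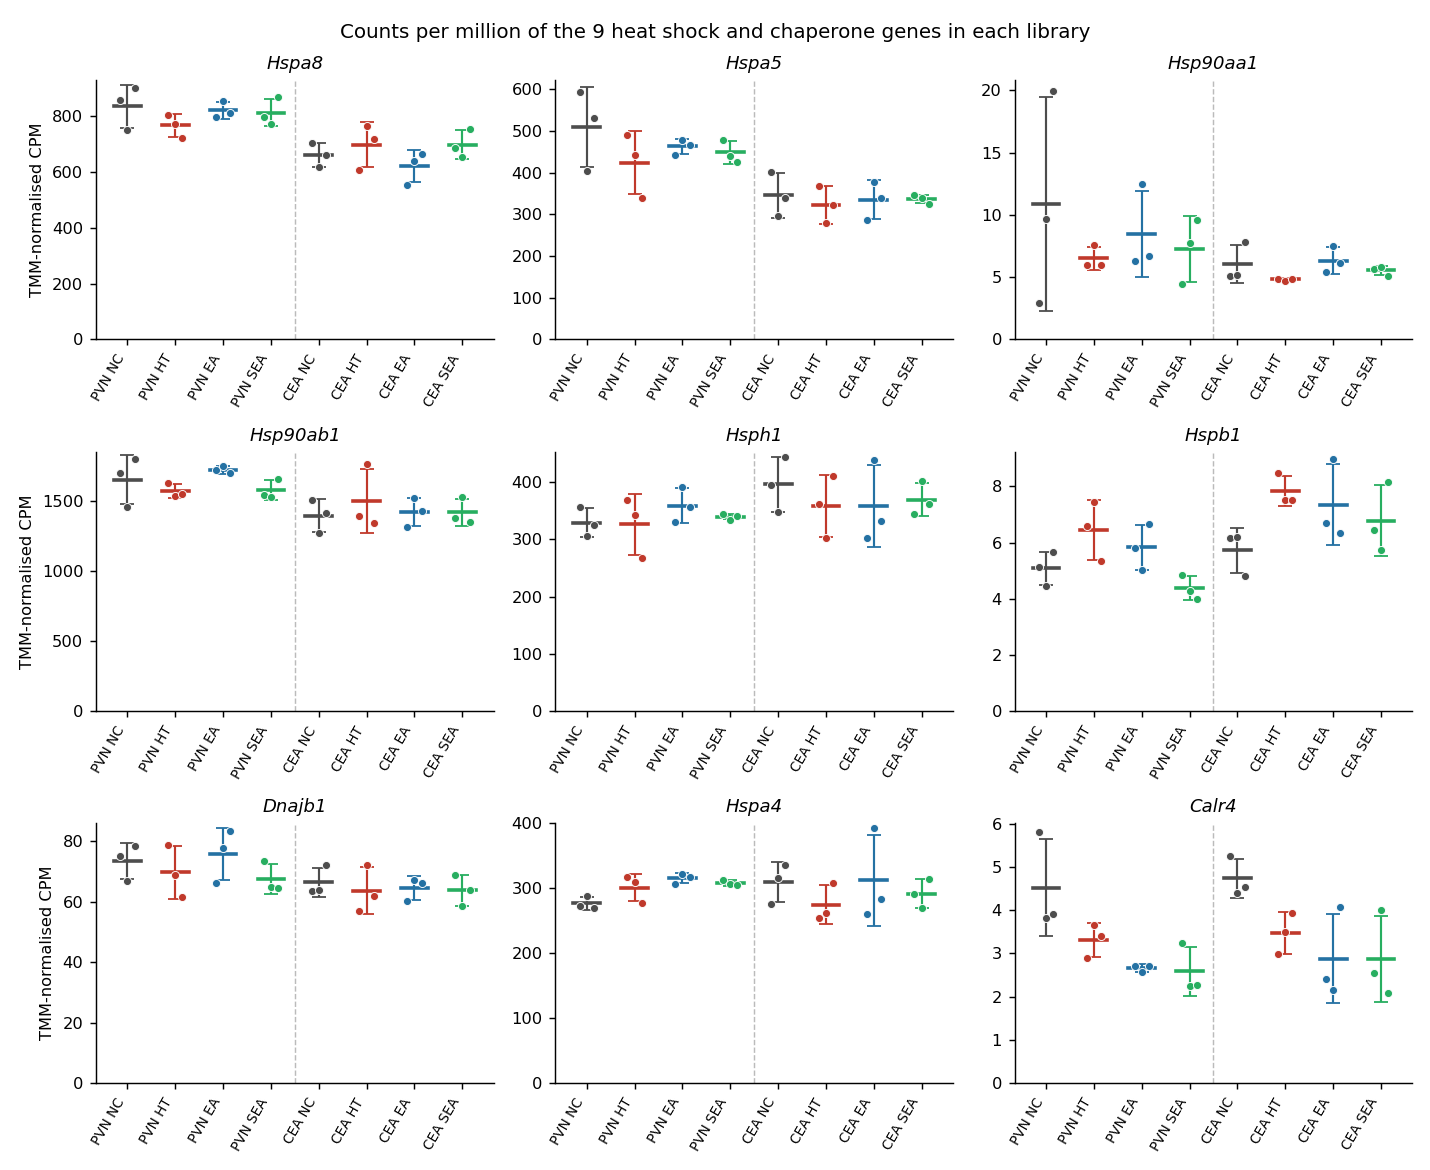
TMM-normalised CPM (y axis, from 0) of the 9 genes in every library, by region and treatment group (x axis). Points are libraries, thick bars group means and thin bars SD of 3 libraries. All 3 NC points of Calr4 lie above all operated points in each region, and Hspa5 points lie lower in the CEA, whose highest library is at 402.6 CPM, than in most PVN libraries.

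Hsp90aa1 needs care before its values are read. Its row held 47 to 357 counts per library, few for a gene of this class. The table has another row, LOC103692716, described as HSP 90-alpha, on the same chromosome and strand at chr6:135107271-135112775, and a pseudogene row, LOC680491. The Hsp90aa1 row took 2.55 to 16.3% (median 6.36%) of the reads assigned to these 3 rows. Its span also lies within that of RGD1305298 on the same strand, which had 0 to 2 counts, and that of Dync1h1 on the opposite strand, which had 2268 to 8586. The strand setting of the counting is not given in the sources used here, so Hsp90aa1 is reported as uncertain. With these copies added, its log2 fold change turned from 0.37 to -0.04 in PVN EA against HT and from 0.22 to -0.22 in PVN EA against SEA. For all operated against NC libraries it turned from -0.12 to 0.20 in the CEA and from -0.33 to 0.06 over both nuclei. The difference between nuclei in the surgery effect turned from 0.38 to -0.45. None of these values was called. Hspa8 shares sequence with copies too (LOC680121, LOC688655 and LOC688932, described as similar to it), but its own row held 79.9 to 91.1% of their joint reads.

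Values of the Hsp90aa1 row and of LOC103692716 are given side by side. In the PVN, Hsp90aa1 was at 2.97, 9.70 and 19.98 CPM in NC, 6.0, 7.57 and 5.98 in HT, 6.31, 12.45 and 6.70 in EA, and 4.42, 7.74 and 9.63 in SEA. The NC libraries alone spanned the whole range of the region. In the CEA it was at 5.13, 5.18 and 7.81 CPM in NC, 4.90, 4.73 and 4.87 in HT, 5.40, 7.5 and 6.13 in EA, and 5.67, 5.86 and 5.12 in SEA. All 3 CEA HT libraries lay below every other CEA library, and groups without overlap were found for 10.4% of genes in HT against NC, 9.66% in EA against HT and 9.86% in SEA against HT. In the PVN, LOC103692716 was at 48.2, 132.5 and 117.7 CPM in NC and at 88.2, 86.9 and 94.5 in HT. It was at 53.2, 49.1 and 155.2 CPM in PVN EA and at 152.6, 76.8 and 79.1 in PVN SEA. The log2 fold change for PVN EA against HT was -0.08 ± 0.38. In the CEA this row was at 60.4, 41.6 and 40.5 CPM in HT and at 166.2, 189.9 and 107.2 in EA. It was at 88.2, 61.4 and 116.7 CPM in CEA SEA and at 45.3, 75.2 and 95.2 in CEA NC. Its log2 fold change for CEA EA against HT was 1.69 ± 0.26 (SE, edgeR, unadjusted p = 0.000148, adjusted p = 0.930), and with the copies added Hsp90aa1 gave 1.48 (unadjusted p = 0.000176, adjusted p = 0.931), against 0.38 ± 0.24 for its own row. Neither passed over all genes by edgeR, while DESeq2 gave LOC103692716 an adjusted p of 8.53e-06. In the same comparison the Hsp90aa1 row ran from 0.25 to 0.48 with 1 library left out, and LOC680491 gave 0.27 ± 0.19. Without CEA EA replicate 2 the edgeR value for LOC103692716 was 1.52 (adjusted p = 0.999). This row was picked after its values were seen.

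**Figure D2:**
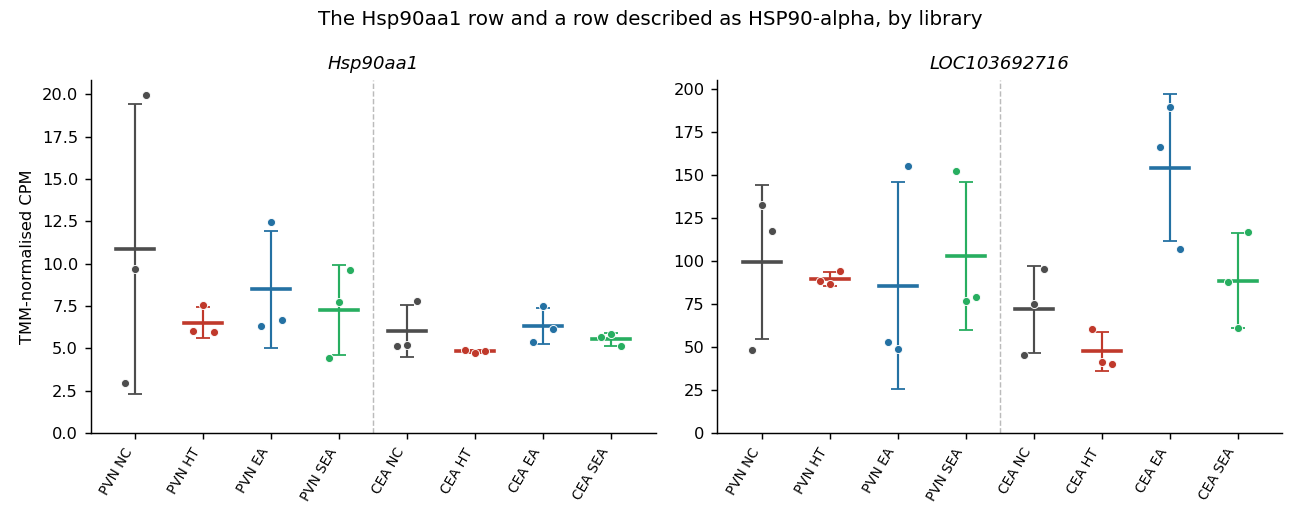
TMM-normalised CPM of the Hsp90aa1 row (left) and of LOC103692716, a row described as HSP 90-alpha (right), in each library (points) with group means and SD of 3 libraries (bars). In the CEA, LOC103692716 sits at 40.5 to 60.4 CPM in HT and at 107.2 to 189.9 CPM in EA, while Hsp90aa1 stays between 4.73 and 7.81 CPM.

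Whether surgery changes these chaperones was asked with HT against NC in each nucleus. No member passed an adjusted p of 0.05 in either (edgeR's quasi-likelihood test with Benjamini-Hochberg adjustment), where 0.012% of all 16727 tested genes passed in the PVN and 0 of 16413 in the CEA. At an unadjusted p under 0.05 the members' count was also 0 of 9 in both, beside 11% and 3.75% of all genes, and DESeq2 called 0 of 9 after adjustment, beside 0.171% and 0.146%. In the PVN, log2 fold changes were above 0 for 3 of 9 members (48.4% of all genes) with a median of -0.05, against -0.01 over all genes. Hspa5, at 593.7, 403.6 and 531.4 CPM in NC and 489.6, 443.3 and 340.2 in HT, gave -0.24 ± 0.17 (adjusted p = 0.511), with overlapping groups, and -0.38 without NC replicate 2, -0.12 without NC replicate 1 and -0.10 without HT replicate 3. Calr4 was the 1 member without overlap, lower in HT (17.1% of genes did not overlap). Hspb1, at 5.11, 4.47 and 5.65 CPM in NC and 6.59, 7.44 and 5.34 in HT, gave 0.37 ± 0.19 (adjusted p = 0.423). Their 95% intervals of -0.64 to 0.16 and -0.08 to 0.83 leave room for changes in either direction. The 2 abundant genes were held more tightly, with Hsp90ab1 at -0.04 (95% interval -0.26 to 0.17) and Hspa8 at -0.10 (-0.30 to 0.11).

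Hspb1 in the CEA did not overlap between the groups, at 6.15, 6.20 and 4.81 CPM in NC and 8.47, 7.52 and 7.51 in HT, where 10.4% of all genes do not overlap. Its log2 fold change was 0.46 ± 0.21 with an adjusted p of 0.917. Of the other members, Calr4 and Hsp90aa1 lay lower in all 3 CEA HT libraries than in all 3 NC libraries. The remaining 6 overlapped. A test of the difference between nuclei in the surgery effect called 0 of 9 members (0% of 17405 genes; 0 of 9 at an unadjusted p under 0.05 beside 12.1% of all genes; 0 of 9 by DESeq2, beside 0.00575%), with Hspa4 furthest from 0 relative to its error at -0.33 ± 0.16, CEA minus PVN (adjusted p = 0.415).

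Surgery with electroacupuncture before and after it was compared with surgery alone. No member passed the adjusted threshold in the PVN (0.0961% of 16641 genes did) or the CEA (0 of 16479), and DESeq2 called 0 of 9 in both (0.558% and 0.0304% of genes). At an unadjusted p under 0.05, 1 of 9 members passed in the PVN, beside 5.67% of all genes, and 0 of 9 in the CEA, beside 3.19%. The PVN gene was Hsp90ab1, at 1629, 1533 and 1544 CPM in HT and 1715, 1746 and 1694 in EA. Every EA library lay above every HT library, as for 12% of genes in either direction. The log2 fold change was 0.12 ± 0.04 (adjusted p = 0.791), from a mean of 1569 CPM to one of 1718. In the PVN 7 of 9 members had log2 fold changes above 0 (50.2% of all genes), and Calr4 and Hspb1 were the exceptions at -0.33 ± 0.19 and -0.16 ± 0.18, the latter running from -0.28 to -0.048 with 1 library left out. The 7 include Hsp90aa1 by its own row (0.37), which was at -0.04 with its copies added. Calr4 also lay lower in every EA than in every HT library. Hspa8, at 807, 774 and 724 CPM in HT and 799, 856 and 812 in EA, gave 0.08 ± 0.05. In the CEA, Hspa8 was at 609, 766 and 720 CPM in HT and 556, 640 and 666 in EA (log2 fold change -0.18 ± 0.17, adjusted p = 0.930). The difference between nuclei in the EA effect was called for 0 of 9 members (0% of 17299 genes), 0 of 9 at an unadjusted p under 0.05 (4.52% of all genes) and 0 of 9 by DESeq2 (0.284%).

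Needles without current were the control for the current itself. SEA against HT called 0 of 9 members in either nucleus, where 0 of 16634 tested genes passed for the PVN and 0 of 16393 for the CEA. At an unadjusted p under 0.05 it called 1 of 9 in the PVN (4.38% of all genes) and 0 of 9 in the CEA (3.07%). That member was Hspb1, at 6.59, 7.44 and 5.34 CPM in HT and 4.83, 4.29 and 4.01 in SEA (log2 fold change -0.56 ± 0.18, adjusted p = 0.981), without overlap, as for 9.88% of genes. EA against SEA called 0 of 9 after adjustment in both nuclei (0 of 16606 and 0 of 16322 genes). In the PVN, Hsp90ab1 at 0.12 ± 0.05 (adjusted p = 0.923) and Hspb1 at 0.40 ± 0.18 (adjusted p = 0.946) were under an unadjusted p of 0.05, which is 2 of 9 members beside 5.21% of all genes, and neither overlapped, as for 10.7% of genes. In the CEA 0 of 9 were, beside 1.99% of genes. DESeq2 called 0 of 9 after adjustment in each of these comparisons, beside 0.126% of genes for SEA against HT and 0.145% for EA against SEA in PVN libraries, and 0.0183% and 0.0307% in CEA libraries. HT libraries serve in both EA against HT and SEA against HT, so the comparisons are not independent.

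Calr4 stood apart when the 9 operated libraries of a nucleus were set against its 3 NC libraries. In the PVN it was at 5.81, 3.81 and 3.92 CPM in NC, at 2.88, 3.66 and 3.40 in HT, at 2.71, 2.56 and 2.71 in EA and at 3.24, 2.24 and 2.27 in SEA. In the CEA it was at 5.25, 4.40 and 4.54 CPM in NC, at 2.98, 3.5 and 3.94 in HT, at 2.41, 2.16 and 4.07 in EA and at 2.54, 3.99 and 2.08 in SEA. Each NC library was above each operated library of its nucleus, which in that direction holds for 2.45% of genes for PVN and 0.311% for CEA libraries. These levels rest on 26 to 92 counts per library. The log2 fold changes were -0.65 ± 0.18 in the PVN (adjusted p = 0.0778) and -0.62 ± 0.24 in the CEA (unadjusted p = 0.0230, adjusted p = 0.9998), so neither passed by edgeR. DESeq2 gave an adjusted p of 0.0267 for the PVN value, in a fit that called 16.7% of genes. Over both nuclei together, a comparison added after these values were seen, Calr4 was at -0.64 ± 0.15 (unadjusted p = 0.000327, adjusted p = 0.0907 by edgeR, 0.0151 by DESeq2). That fit takes the libraries of the nuclei as independent.

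Hspa4 was the other member with a small unadjusted p in the operated PVN. It was at 273.5, 287.7 and 269.5 CPM in NC, 317.0, 309.2 and 277.9 in HT, 307.1, 322.7 and 317.2 in EA, and 313.7, 307.3 and 304.7 in SEA. Of the 9 operated libraries, 8 lay above the highest NC library and 1 HT library lay below it. The log2 fold change was 0.17 ± 0.05 (adjusted p = 0.0785 by edgeR and 0.0168 by DESeq2). In the CEA the same contrast gave -0.08 ± 0.13, and -0.16 to -0.015 with 1 library left out.

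Counted together, 0 of 9 members passed by edgeR in the operated PVN (0.0639% of 17211 genes) and CEA (0 of 17046), with 2 of 9 and 1 of 9 at an unadjusted p under 0.05 (29.8% and 2.82% of all genes). DESeq2 called 2 of 9 and 0 of 9, beside 16.7% and 0.0646% of genes. In the PVN 1 library decided the count, of members and of all genes alike. Without NC replicate 2, edgeR called 33.7% of 17448 genes, and 3 of 9 members, a share at that background. These were Calr4 (-0.75, adjusted p = 0.0128), Hspa4 (0.21, adjusted p = 0.00903) and Hspa5 (-0.31, adjusted p = 0.0324). By the study's own rule, a DESeq2 p under 0.05 without adjustment, 2 of 9 members passed in the operated PVN (28.3% of all genes), 1 in the operated CEA (2.98%), 2 over both nuclei (9.09%), and 1 each in PVN EA against HT (4.08%), SEA against HT (2.65%) and EA against SEA (3.67%). Without NC replicate 1, edgeR's Calr4 value in the PVN came to -0.43 (adjusted p = 0.353). Over both nuclei 0 of 9 passed by edgeR (0.214% of 17768 genes), 2 of 9 at an unadjusted p under 0.05 (8.52%) and 1 of 9 by DESeq2 (0.597%). Leaving out PVN NC replicate 2, CEA EA replicate 3 or CEA SEA replicate 2 brought Calr4 under the threshold there (adjusted p = 0.0158, 0.0309 and 0.0364), where 4.86%, 0.277% and 0.244% of all genes passed. Without PVN NC replicate 1 it was -0.52 (adjusted p = 0.407). Of the 9 members 3 had log2 fold changes above 0 in this comparison, beside 50.6% of all genes.

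**Figure D3:**
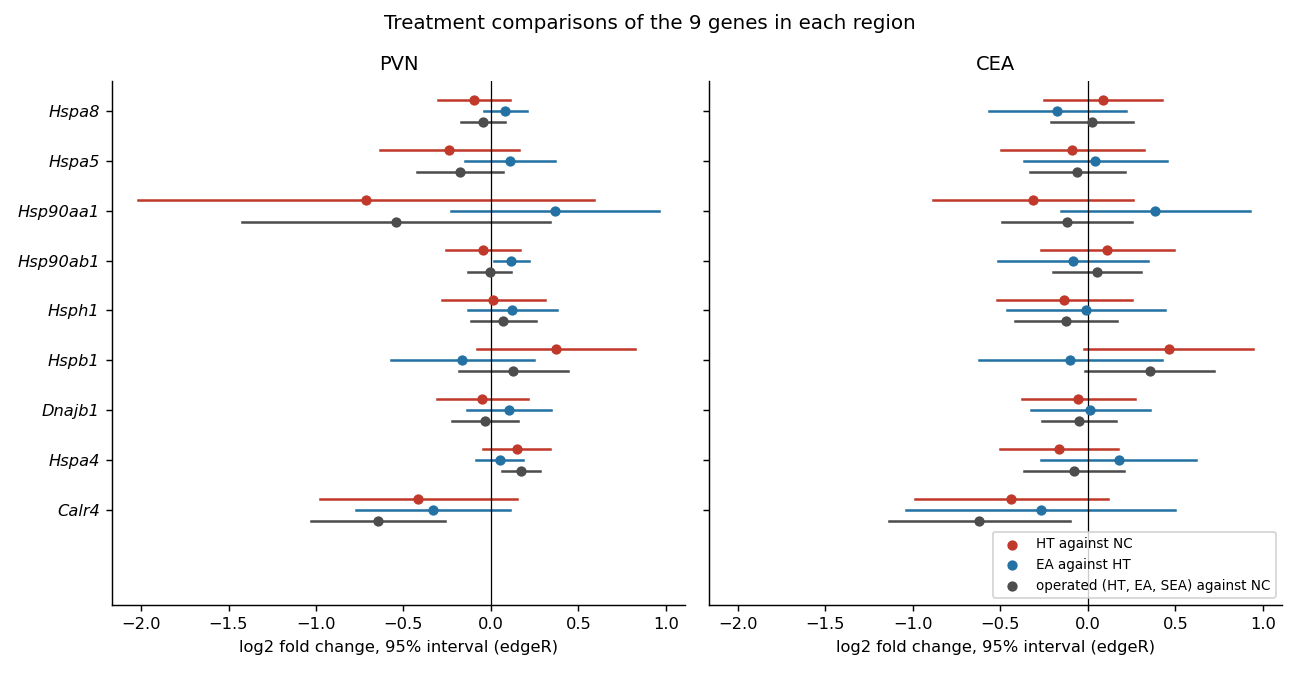
Log2 fold changes (x axis) with 95% intervals from edgeR for each gene (y axis) in the PVN (left) and the CEA (right), for HT against NC, EA against HT and all operated against NC libraries. Most intervals cross 0, and that of Calr4 for operated against NC runs from -1.03 to -0.27 in the PVN and from -1.14 to -0.10 in the CEA.

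The wider chaperone families held no gene called by edgeR over all libraries in any treatment comparison. Across lists of cytosolic HSP70 and HSP110, HSP90 and its co-chaperones, J proteins and exchange factors, small heat shock proteins, endoplasmic reticulum chaperones, unfolded protein response regulators, mitochondrial chaperones, chaperonin and prefoldin, heat shock factors, HSF1 target genes and cold-inducible RNA-binding proteins, 0 of 102 genes beside the members passed the adjusted threshold by edgeR in PVN operated against NC, with 41 at an unadjusted p under 0.05 (29.8% of all genes), and DESeq2 called 18, a share near its background of 16.7%. Without PVN NC replicate 2, where 33.7% of all genes passed, edgeR called 51 of 103, among them Hspa4l (0.58, adjusted p = 0.000167) and Pfdn2 (-0.42, adjusted p = 0.000162). In PVN HT against NC 0 of 101 passed by either tool, with 14 under an unadjusted p of 0.05 (11% of all genes), and in CEA operated against NC 0 of 100, with 1 (2.82% of all genes). DESeq2 called 1 of 100 in PVN EA against SEA (0.145% of all genes) and, apart from the 18 in the operated PVN, 0 in each other comparison of treatments. In chaperonin and prefoldin, the ring and its helper that fold actin and tubulin, 7 of 14 genes were under an unadjusted p of 0.05 and lower in the operated PVN, beside 14.2% of all genes. None of the 14 had a log2 fold change above 0 (47.4% of all genes), with a median of -0.17 against -0.02 over all genes. Their summed level was 1831, 2213 and 2243 CPM in the PVN NC libraries and 1809 to 1915 CPM in the operated ones, so the lowest NC library lay within the operated range. Markers of neighbouring tissue moved in the same comparison: 5 of 6 thalamic markers were above 0 (median 0.36) and 5 of 5 tested ones of cortical and hippocampal neurons (0.56), while 7 of 8 PVN markers were not (-0.23). Their part in the result was not tested. Pfdn2 led them at -0.32 ± 0.08 (adjusted p = 0.0772 by edgeR and 0.0089 by DESeq2). In the CEA 9 of 14 chaperonin and prefoldin genes were above 0 (49.7% of all genes) with a median of 0.05. Endoplasmic reticulum chaperones, Hspa5 and Calr4 included, had a median of -0.21 in PVN HT against NC and of 0.09 in EA against HT, where 19 of 20 were above 0 (50.2% of all genes). In SEA against HT 15 of 20 were above 0 with a median of 0.07, and in EA against SEA 13 of 20 with a median of 0.02. Each of the comparisons with HT uses the same HT libraries. At an unadjusted p under 0.05 HT against NC held 1 of these 20 genes (11% of all genes), while EA against HT held 0 (5.67%). The PVN markers had a median of -0.37 in HT against NC and 0.26 when EA was set against HT, the thalamic markers 0.56 and -0.30, and the lowest PVN marker sum of the region, 449 CPM, was that of an HT library. Their part was not tested here either. Hspa4l, an HSP110 gene and closest relative of Hspa4 among the lists, was at 116.0, 169.0 and 130.5 CPM in PVN NC and at 196.2, 189.7 and 161.1 in HT, and gave 0.40 ± 0.10 for operated against NC (adjusted p = 0.0778 by edgeR and 0.0089 by DESeq2).

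None of the heat shock factors that regulate these genes passed either. Hsf1 gave -0.14 ± 0.19 in PVN HT against NC and 0.24 ± 0.15 in the CEA (adjusted p = 0.727 and 0.917). Hsf2 gave -0.14 ± 0.12 and 0.03 ± 0.14, and Hsf4 -0.10 ± 0.15 and 0.21 ± 0.28. Of the cold-inducible RNA-binding proteins, whose transcripts rise when body temperature falls, Rbm3 was at 63.4, 77.6 and 65.7 CPM in CEA NC and 93.7, 143.1 and 83.3 in HT (0.64 ± 0.22, unadjusted p = 0.0205, adjusted p = 0.917). In PVN HT against NC, Rbm3 gave -0.07 ± 0.23. Cirbp gave 0.36 ± 0.20 in the CEA, with HT libraries at 58.4, 92.1 and 58.2 CPM, and -0.20 ± 0.15 in the PVN. With 1 library left out, Cirbp ran from 0.105 to 0.48 in the CEA and from -0.37 to -0.086 in the PVN. Rbm3 ran from 0.37 to 0.80 in the CEA.

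Hspa8, Hspa5, Hsp90aa1, Hsp90ab1 and Dnajb1 were lower in the CEA than in the PVN, and Hspb1 was higher. These 6 of 9 members were called over all 24 libraries, beside 56.6% of all 17768 genes (61% before adjustment, again 6 of 9 members), so this share is near the background. DESeq2 called 6 of 9 as well, beside 57.5% of genes. Hspa5 differed most among the abundant members: its 12 PVN libraries ran from 340.2 to 593.7 CPM with a median of 454.6 and its 12 CEA libraries from 278.3 to 402.6 with a median of 340.1, a log2 fold change of -0.48 ± 0.08 (adjusted p = 2.05e-05). Hspa8 ran from 724.2 to 900.7 CPM (median 803.2) in the PVN and from 555.9 to 765.9 (median 664.6) in the CEA, -0.30 ± 0.05 (adjusted p = 3.71e-05). Hsp90ab1, at 1455 to 1794 and 1269 to 1759 CPM, gave -0.21 ± 0.05 (adjusted p = 0.00262). Dnajb1, at 61.5 to 83.4 and 56.9 to 72.0 CPM, gave -0.17 ± 0.06 (adjusted p = 0.0140), and its call was lost with no filter on low counts (adjusted p = 0.0541) and without PVN NC replicate 3 (-0.13, adjusted p = 0.0643). Hspb1 was the only member higher in the CEA by this test, at 4.01 to 7.44 CPM in PVN and 4.81 to 8.99 in CEA libraries, 0.33 ± 0.09 (adjusted p = 0.00427). All of these ranges overlapped.

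Hsp90aa1 was lower in the CEA at -0.55 ± 0.21 (adjusted p = 0.0343), and this rested on single libraries, the call being lost in 10 of 24 fits that left out 1 library. Without PVN NC replicate 3 it gave -0.33 (adjusted p = 0.128), and with the copies added -0.23 (adjusted p = 0.274). Hsph1 (0.11 ± 0.07, 95% interval -0.04 to 0.25), Hspa4 (-0.04 ± 0.06, -0.17 to 0.08) and Calr4 (0.08 ± 0.13, -0.20 to 0.36) were not called. With the 3 NC libraries of each nucleus alone, 0 of 9 members passed by edgeR, at -0.57 for Hspa5 (adjusted p = 0.052), -0.35 for Hspa8 (adjusted p = 0.0551), -0.25 for Hsp90ab1, -0.15 for Dnajb1, 0.16 for Hspb1 and -0.86 for Hsp90aa1, where 26.4% of all genes passed. Same-numbered NC libraries of the nuclei deviated together, though no label pairs them and the study's methods describe samples from different animals. With the replicate number as a block in the fit of these NC libraries, 2 of 9 passed, beside 27.5% of genes. These were Hspa5 (-0.56, adjusted p = 0.0123) and Hspa8 (-0.35, adjusted p = 0.0454). The oligodendrocyte, microglial and striatal markers moved with these differences, all 8 of each list being higher in the CEA, and their part in the result was not tested.

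Counted without the 9 members, most chaperone lists had more genes lower than higher in the CEA, cytosolic HSP70 and HSP110 and small heat shock proteins being the exceptions. Chaperonin and prefoldin had 0 of 14 higher and 10 lower (Cct2 -0.55 ± 0.06, Tcp1 -0.50 ± 0.06 and Cct6a -0.34 ± 0.04 on the log2 scale), HSP90 and its co-chaperones 2 of 14 higher and 7 lower (Ppid -0.52 ± 0.05, Stip1 -0.51 ± 0.05), and endoplasmic reticulum chaperones 2 of 18 higher and 10 lower (Hyou1 -0.62 ± 0.06, Pdia6 -0.46 ± 0.05). Unfolded protein response regulators had 2 of 12 higher and 7 lower, among them the stress sensor Ern1 (-0.66 ± 0.06) and its target Xbp1 (-0.46 ± 0.07). Among small heat shock proteins 2 of 5 were higher and 2 lower: Cryab, a crystallin chaperone abundant in oligodendrocytes, was higher (1.14 ± 0.24) and Hspb7 (-1.84 ± 0.24) and Hspb8 (-0.46 ± 0.08) lower. Cytosolic HSP70 and HSP110 had 3 of 7 higher and 1 lower, J proteins and exchange factors 2 of 16 and 6, HSF1 targets 1 of 14 and 7, and mitochondrial chaperones 1 of 9 and 4. Over all genes 27.1% were higher and 29.6% lower. Of the heat shock factors, Hsf4 had the widest gap, at 14.8 to 20.1 CPM in the 12 PVN libraries and 4.43 to 8.74 in the 12 CEA libraries without overlap (-1.50 ± 0.11, adjusted p = 2.51e-10), while Hsf2 gave -0.23 ± 0.05 and Hsf1 -0.19 ± 0.075 (adjusted p = 0.0347 by edgeR and 0.064 by DESeq2). The call of Hsf1 was lost in 12 of 24 fits that left out 1 library (highest adjusted p = 0.127).

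**Figure D4:**
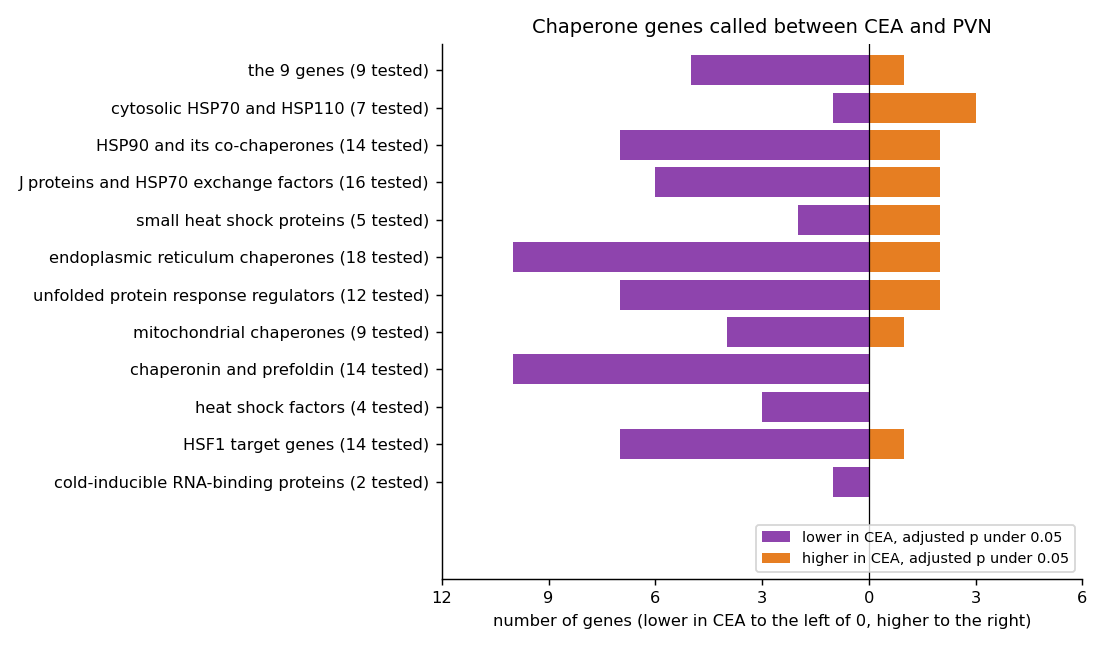
Number of genes (x axis) of each chaperone list without the 9 members, which have a bar of their own (y axis), with an adjusted p under 0.05 by edgeR for CEA against PVN, lower in the CEA to the left of 0 and higher to the right. Chaperonin and prefoldin genes were called in 1 direction only, 10 of 14 being lower in the CEA.

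The spread between libraries of a group was also compared between genes. Deviations of log2 CPM from the group mean had an SD of 0.09 for Hspa8 and 0.10 for Hsp90ab1, 0.12 to 0.17 for Dnajb1, Hspa4, Hsph1, Hspa5 and Hspb1, 0.25 for Calr4 and 0.48 for Hsp90aa1. Over the 24 libraries, 30 of the 36 pairs of members had a Pearson r above 0, with a median of 0.20 and a range of -0.41 to 0.72. The highest, Hspa5 with Hsph1 (r = 0.72, permutation p = 0.0042; Spearman rho = 0.69, permutation p = 0.0033), had an adjusted permutation p of 0.12 over the 90 pairs computed, and 0 of 36 member pairs passed 0.05 after this adjustment. For the 90 pairs, 6 genes beside the members were added after their values were seen.

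Among these 90, 2 pairs passed. Each joins a member to a gene added after its values were seen, a choice that the adjustment does not cover. Hspa5 followed Hsp90b1, its partner in the endoplasmic reticulum, with r = 0.87 (permutation p = 0.00086, adjusted 0.039) and rho = 0.86 (permutation p = 0.00049, adjusted 0.022). It was 0.91 in the PVN, 0.81 in the CEA, 0.80 without the 2 libraries farthest from the median of Hspa5 and 0.86 without CEA EA replicate 2. Calr and Calr4, whose windows also held a stress element, did not pass with Hspa5, at r = 0.67 (rho = 0.65, adjusted permutation p = 0.24 and 0.21) and r = 0.19 (rho = 0.22, adjusted permutation p = 0.68 and 0.59). Hspa4 followed Hspa4l with r = 0.92 (permutation p = 0.00019, adjusted 0.017) and rho = 0.94 (permutation p = 0.0001, adjusted 0.009), 0.76 in the PVN, 0.96 in the CEA, 0.90 without the 2 farthest libraries and 0.89 without CEA EA replicate 2. The largest negative value was that of Hsph1 with Cirbp (r = -0.70, permutation p = 0.013, adjusted 0.17; rho = -0.67, permutation p = 0.011, adjusted 0.20), which did not pass. It was -0.72 in the PVN and -0.68 in the CEA, and -0.67 without the 2 farthest libraries.

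**Figure D5:**
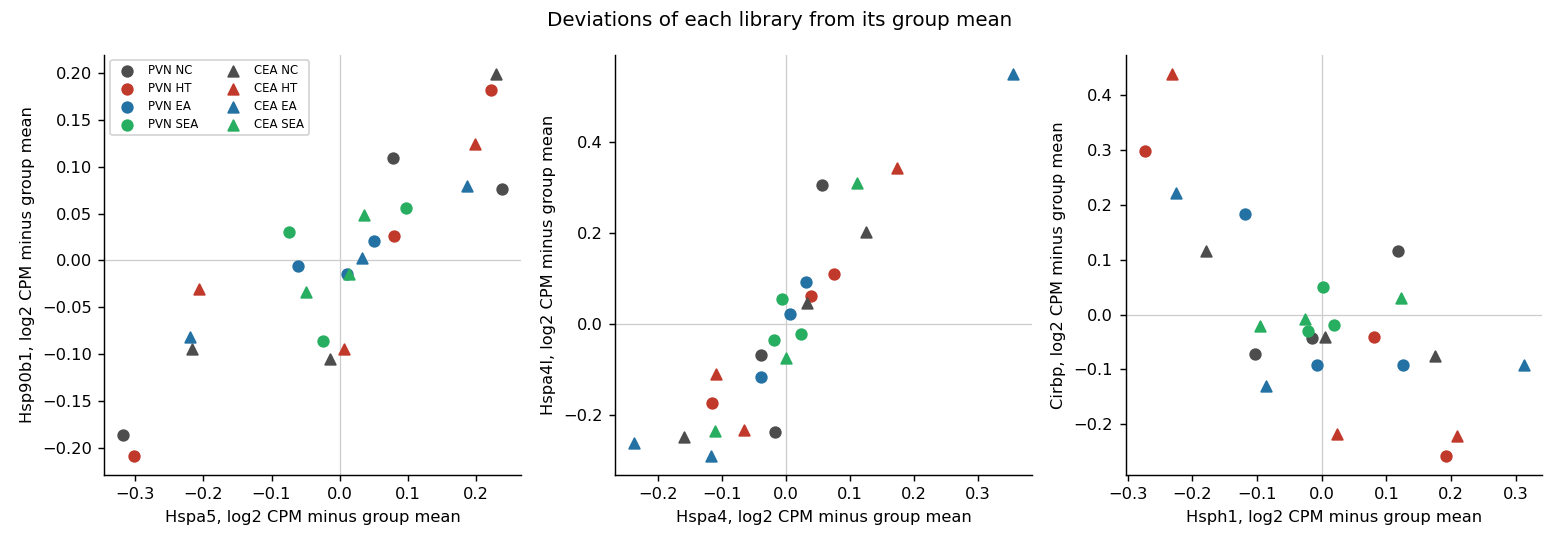
Deviation of each library's log2 CPM from its group mean for Hspa5 and Hsp90b1 (left), Hspa4 and Hspa4l (middle) and Hsph1 and Cirbp (right), with circles for PVN and triangles for CEA libraries, coloured by treatment. Points rise together in the first 2 panels (r = 0.87 and 0.92) and fall in the last (r = -0.70), with 1 CEA EA library at the far end of the middle panel.

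The genes most like the cytosolic members were sought over all 17768 genes tested, as the correlation of each gene's deviations with the mean deviation of Hspa8, Hsp90aa1, Hsp90ab1, Hsph1, Dnajb1 and Hspa4 in the 24 libraries. That mean followed Hsp90aa1 most, with r = 0.81 against 0.43 to 0.55 for the other 5. Highest were Lrfn5 (r = 0.86), a synaptic adhesion protein, Ppp1cc (0.83), a catalytic subunit of protein phosphatase 1, Spats2 (0.81), the tubulin gene Tuba4a (0.79) and Cbarp (0.78). Lowest were Stom (-0.85), Nr2c1 (-0.84), Cr1l (-0.78), Rhbdd1 (-0.77) and Kif15 (-0.76). With each gene's deviations divided by their SD, which lowered the r of Hsp90aa1 to 0.43, 3 of these 10 genes (Nr2c1, Cr1l and Kif15) stayed among the 10, and Fkbp4, an HSP90 co-chaperone, came first at 0.84. The values describe libraries that share depth and dissection within a nucleus.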

How the data were processed

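Gene-level read counts, deposited as 1 table of the whole series, were used as given (unit: counts). The authors aligned strand-specific libraries with HISAT2 and counted reads per gene with featureCounts, whose versions are not given in the sources used here. The study's methods name the rat build mRatBN7.2, the submitters' processing notes name GRCh38 and hg38, and the table itself names none. Its largest gene end on chromosome 1, 282724300, is printed only as a mark of the build, and no table coordinate was looked up in another build. A repeated header line within the table (1 line) was left out. It gives CEA EA replicates 2 and 3 in exchanged order, and the first header, which matches the sample titles, was followed.

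The members and all gene lists were chosen with earlier results of these data known. Genes passing filterByExpr were tested with edgeR 4.0.16 (TMM normalisation, glmQLFit and glmQLFTest, two-sided) in R 4.3.3, p-values were Benjamini-Hochberg adjusted over all genes tested, and an adjusted p under 0.05 was called. Each comparison was fitted on its own groups, operated against NC on all 4 groups of a nucleus and CEA against PVN on all 8. DESeq2 1.42.0, other normalisation and filtering, a replicate block, leaving out each library, and the addition of copies were alternatives, the last chosen after seeing the data, as was the comparison over both nuclei. Printed CPM are TMM-normalised over 24 libraries, fold changes are log2 and ± is SE for them and SD for levels. For pairs of genes, libraries were permuted within groups (100000 permutations, two-sided). Deviations used log2 CPM with a prior count of 2. Named genes were all members, up to 3 called genes of each list in a comparison or otherwise the 1 with the smallest p, the heat shock factors, Hspa1a, Hspa1b, Cirbp and Rbm3, and the 5 genes of highest and of lowest likeness. Not all genes so chosen are printed. No 2 libraries had identical counts. Over genes, deviations of same-numbered libraries correlated at 0.24, 0.18 and 0.29 for CEA NC with HT, all over 0.1, so the replicate numbers were taken to pair the samples in that comparison, where the block changed no call. They were 0.29, 0.13 and 0.20 for PVN NC with CEA NC, so a blocked fit of the NC libraries was added after seeing the data, as was a scaled form of the likeness. The fits were also run on simulated counts, with 1 spread for all genes and changes of 1 log2 unit. Recovery of smaller changes, such as most of those printed, was not tested. Totals of 13152772 to 18607032 counts make 1 count 0.0537 to 0.0760 CPM.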

Additional observations from a re-analysis of the deposited data

How the results depend on the processing

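No member was called in any treatment comparison under RLE normalisation, no filter on low counts, all groups in the fit or the replicate block. DESeq2 with the study's rule of an unadjusted p under 0.05 counted 1 member in PVN EA against HT, PVN SEA against HT, PVN EA against SEA and CEA operated against NC (2.65 to 4.08% of all genes). It counted 2 in PVN operated against NC (28.3%) and over both nuclei (9.09%). After adjustment DESeq2 counted 2 in the operated PVN (16.7% of all genes) and 1 over both nuclei (0.597%). Leaving out 1 library at a time gave 0 members in each comparison of 2 groups, in the differences between nuclei and in the operated CEA, 0 to 3 in the operated PVN, 0 to 1 over both nuclei and 4 to 6 in CEA against PVN, against 6 in all libraries 0 with NC libraries only and 2 with these and a replicate block, where the sign of Hspa4 (0.15 in both) also turned. Log2 fold changes that changed sign when 1 library was left out ranged from -0.12 to 0.0065 for Hsp90ab1 and from -0.39 to 0.10 for Rbm3 in PVN HT against NC, from -0.026 to 0.11 for Hsf2 and from -0.10 to 0.38 for Hsf4 in CEA HT against NC, and from -0.0052 to 0.14 for Calr4 in CEA against PVN. Of the printed log2 fold changes checked this way, leaving out 1 library moved 23 of 37 that were not called, and 1 of 24 that were (Hsp90aa1 in CEA against PVN), by over 1.5 times or past 0. Over all members and comparisons, printed or not, 119 of 1296 values with 1 library left out and 32 of 864 under other settings changed sign. Under the replicate block 124 of 126 member values kept direction and call, 2 changed sign, and the count of members called in a treatment comparison was 0 as without it. No label pairs samples by number. Outside CEA HT against NC and PVN NC with CEA NC, same-number correlations of the other pairs of groups ran from -0.27 to 0.30. Causes of these changes were not tested. Calr4, Hspb1 and Hsp90aa1 had the lowest counts of the members, at 26 to 357 per library.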

Other observations

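Among lists outside the chaperones, immediate early genes, which neurons switch on within minutes of activity, were compared between operated and NC libraries over both nuclei. Of the 16, 3 were lower after adjustment by edgeR, where 0.214% of all genes passed (Fos -1.11 ± 0.17, adjusted p = 0.00696; Junb -0.71 ± 0.09, adjusted p = 0.00254; Egr1 -0.73 ± 0.15, adjusted p = 0.0438), 0 passed in the other direction, 2 of 16 had log2 fold changes above 0 (50.6% of all genes), and the median of the list was -0.67 against 0.00 over all genes, on the log2 scale. Of 12 glucocorticoid-induced genes, 11 had log2 fold changes above 0 in the same comparison, with a median of 0.43, and 0 passed the adjusted threshold by edgeR (1 at an unadjusted p under 0.05, beside 8.52% of all genes). In this comparison 0 of 6 markers of cortical and hippocampal excitatory neurons (median -0.23, at -0.89 in the CEA alone but above 0 in the PVN alone) and 0 of 8 striatal markers (-0.13) had log2 fold changes above 0, and 1 of 8 astrocyte markers was called lower. Their part in these values was not tested. This comparison was added after the data were seen. Its fit takes the libraries of the nuclei as independent, which labels do not settle. When each of the 24 libraries was left out in turn, the call of Junb was kept in all fits, that of Fos was lost in 2 (highest adjusted p = 0.0552) and that of Egr1 in 16 (highest adjusted p = 0.191).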
